A study of Drosophila melanogaster with 4 samples.

Results

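The genes kay, Ets21C and cbt, which encode transcription factors, and the uncharacterised gene CG14186 were followed through a cold shock of adult Drosophila melanogaster males. These genes were chosen with earlier results of these data known. Their spots were taken by symbol, as those that carried one of these names alone in the platform annotation. On the larger array design, called 12k here, this gave 8 of 27648 spots and 4 of 6793 named genes, with 2 spots printed side by side for each gene. On the pilot's 7k design it gave 6 of 16896 spots and 3 of 2377 named genes, since no spot there carried Ets21C as its single symbol.

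All flies were whole males of strain dp cn bw cl, aged 6 to 7 days after eclosion and reared at 25 °C. One group spent 2 h at 0 °C and recovered for 30 min at 25 °C, while its co-reared controls stayed at 25 °C throughout. Each of 3 12k arrays compared RNA of 1 independent pair of such groups, with cold-shocked RNA in Cy5 and control RNA in Cy3, and 1 pilot array carried the dyes the other way round. The labels do not say how many flies made up an extract. The strain carries the visible mutations in its name in both groups, and no transgene is stated.

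Fos proteins such as that of kay pair with a Jun protein, in flies that of Jra, to form the factor AP-1. AP-1 is activated by the Jun kinase (JNK) pathway, a cascade that cells use in wounding, epithelial closure and many forms of stress. Ets21C encodes an ETS-domain factor that acts with AP-1 downstream of JNK in damaged or overgrowing fly epithelia. The zinc finger factor of cbt (cabut), of the Krüppel-like family, is known from dorsal closure, from the response to dietary sugar and from the output of the circadian clock. CG14186 has no function named in the tables used here. It is known as a transcript that rises after neuronal activity in the fly brain, as do several immediate early genes.

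A value is the authors' log ratio of the channels for a spot, taken as log2, because its base is not stated. A ratio above 0 likely means more transcript in the cold-shocked flies, since Cy5 over Cy3 and treated over control point the same way on the 12k arrays. The files do not state it. Because cold-shocked RNA was in the same dye on all 3 arrays, the treatment and any bias of that dye cannot be told apart. In RNA of whole animals, more cells of a type and more RNA per cell cannot be told apart either. The array medians were −0.13, 0.03 and 0.03, and the SD over all spots ranged from 0.457 to 0.729. The signal of a spot over background could not be judged, since intensities of the channels were not used here.

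All 4 genes had a mean of their spots above 0 on all 3 arrays, a pattern that 12.5% of the named genes shared. kay and CG14186 had the higher means, of 0.72 and 0.68, or 1.64-fold and 1.60-fold. Ets21C followed at 0.37, or 1.29-fold, and cbt at 0.23, or 1.17-fold. None passed limma's test over all 19325 features, in which 0 features (0%) passed at an adjusted p of 0.05. Under a limma unadjusted p of 0.05 were 924 features, where 966 would be expected if none changed. kay and CG14186 were among the 62 named genes (0.913%) that were higher at that unadjusted p, and Ets21C and cbt were not.

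Spot by spot, kay stood at 1.07 and 1.10 on array 1, at 0.19 and 0.50 on array 2, and at 0.69 and 0.74 on array 3. All 6 values of this Fos gene were above 0, the lowest on array 2 and the highest on array 1. As a mean of both spots it was 1.08, 0.35 and 0.72 on arrays 1 to 3. That placed kay above 99.3%, 84.7% and 93.2% of the named genes on the same arrays. The mean over arrays was 0.72 ± 0.37 (SD, n = 3) with a 95% interval of 0.13 to 1.30, or 1.10-fold to 2.46-fold. In the limma fit kay had an unadjusted p of 0.0227 and an adjusted p of 0.853.

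CG14186 stood at 0.88 and 0.96 on array 1, at 0.05 and 0.70 on array 2, and at 0.79 and 0.71 on array 3. All 6 values were again above 0, though the first spot on array 2 was close to it. Its means of 0.92, 0.37 and 0.75 on arrays 1 to 3 lay above 99.0%, 86.4% and 94.2% of the named genes. The mean over arrays was 0.68 ± 0.28 (SD, n = 3), with a 95% interval of 0.13 to 1.24, or 1.09-fold to 2.35-fold. The limma unadjusted p of CG14186 was 0.0229 and its adjusted p 0.853.

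Ets21C stood at 0.50 and 0.44 on array 1, at −0.07 and 0.36 on array 2, and at 0.57 and 0.40 on array 3. Of the 6 values of this ETS factor gene, 5 were above 0 and the exception was the first spot on array 2. The gene means of 0.47, 0.14 and 0.49 lay above 94.7%, 64.8% and 85.5% of the named genes on arrays 1 to 3. Over arrays Ets21C had a mean of 0.37 ± 0.19 (SD, n = 3) with a 95% interval of −0.17 to 0.90, and a limma adjusted p of 0.853. No array put it past a fold of 1.5.

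cbt stood at 0.07 and 0.09 on array 1, at 0.61 and −0.48 on array 2, and at 0.72 and 0.36 on array 3. The second spot on array 2 was the lowest value of all 4 genes, and the sign of cbt on that array differed between its spots. The gene means were 0.08, 0.07 and 0.54 on arrays 1 to 3, above 70.2%, 56.0% and 87.6% of the named genes. Over arrays cbt had a mean of 0.23 ± 0.27 (SD, n = 3) with a 95% interval of −0.32 to 0.78, and a limma adjusted p of 0.879. Array 3 set most of that mean, which was 0.07 without it.

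**Figure D1:**
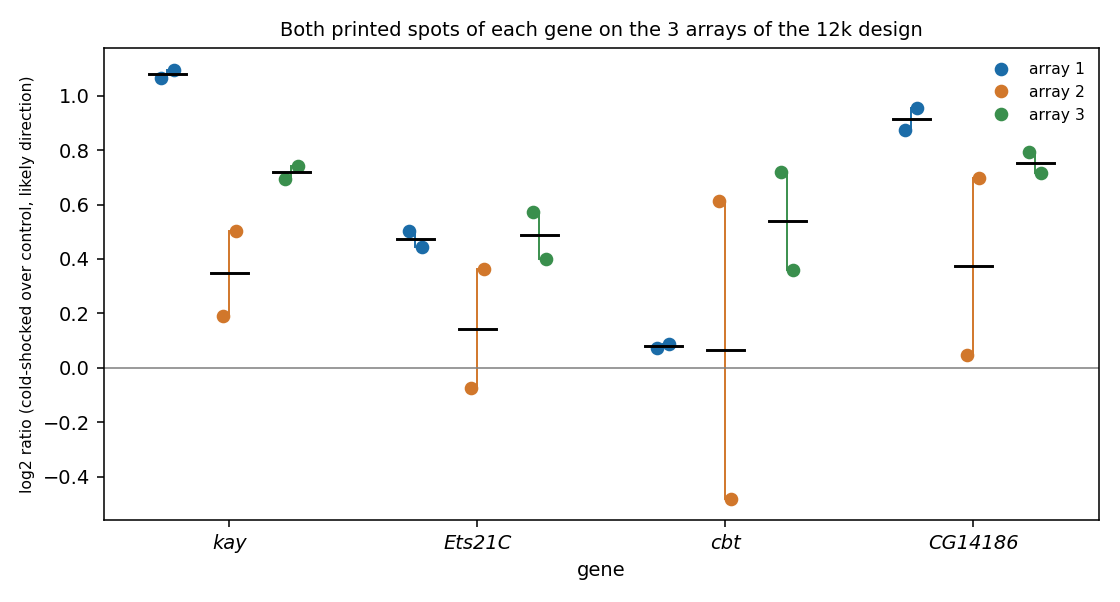
Log2 ratio of each printed spot (vertical axis) for kay, Ets21C, cbt and CG14186 (horizontal axis) on the 3 12k arrays. Coloured points are spots, thin lines join the spots of one array, and black bars are their means. Of 24 values 22 are above 0, and the lowest is the second cbt spot on array 2, at −0.48.

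Ordered by mean, the genes ran kay, CG14186, Ets21C and cbt. kay exceeded CG14186 by 0.035 ± 0.11 (SD, n = 3), less than its spread over arrays, and was the higher of both on array 1 only. CG14186 exceeded Ets21C by 0.31 ± 0.11 (SD, n = 3), with the same sign on all 3 arrays. Ets21C exceeded cbt by 0.14 ± 0.23 (SD, n = 3) and lay below it on array 3, so this pair did not differ beyond the spread. With local medians of 7 by 7 spots subtracted that difference turned to −0.23. These differences were read from the values and were not tested.

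Array 2 gave the lowest mean for kay, Ets21C, cbt and CG14186 alike, and its spot values also had the smallest SD over the whole array. Both genes with the higher means passed a fold of 1.5 on arrays 1 and 3 and missed it on array 2. Thus 0 of the 4 genes were past that fold on all 3 arrays, where 5 named genes (0.0736%) were. A mean of at least that fold was shared by 96 named genes (1.41%), among them kay and CG14186.

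**Figure D2:**
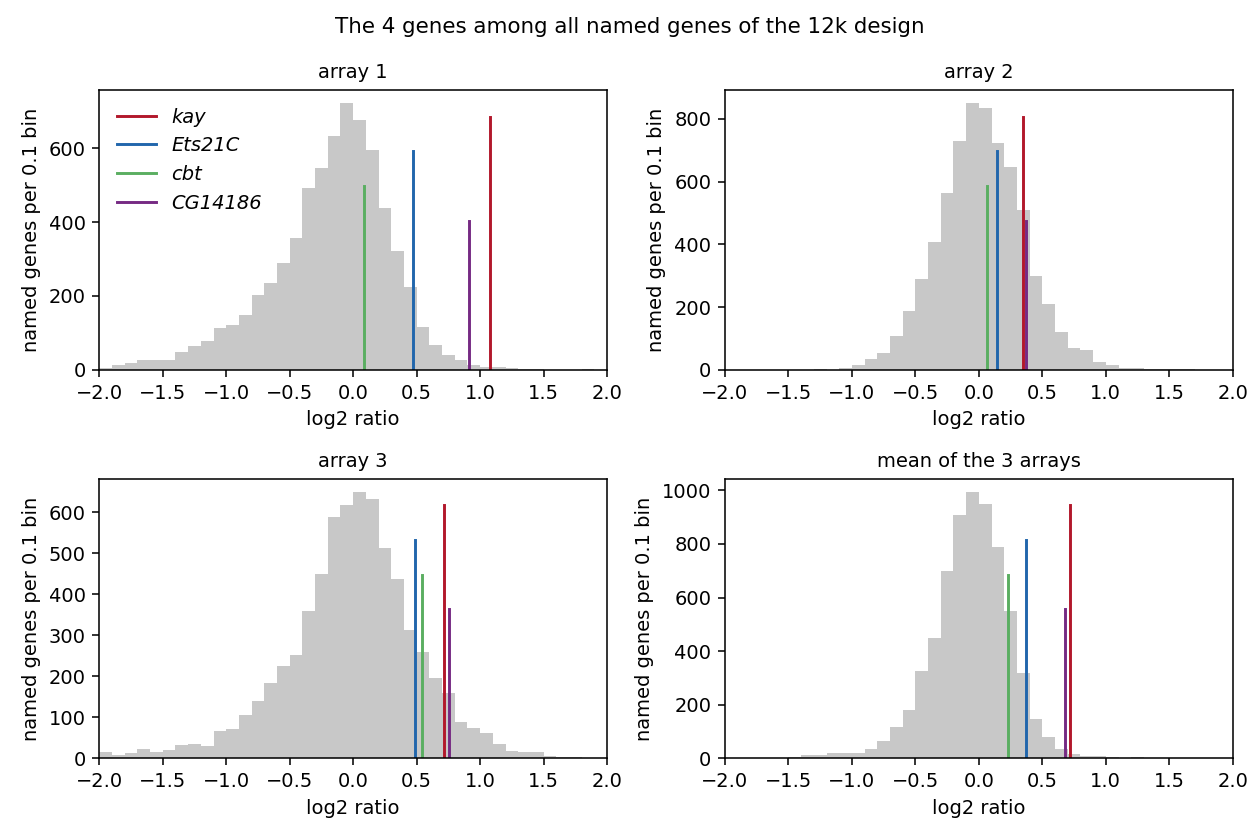
Number of named genes (vertical axis) per 0.1 bin of log2 ratio (horizontal axis), on each 12k array and for the mean of the 3, in grey, with coloured lines at kay, Ets21C, cbt and CG14186 (line heights carry no value). kay and CG14186 lie above 99.2% and 99.1% of the genes by the mean, Ets21C above 94.3% and cbt above 85.1%. Values beyond the axis ends are not drawn.

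Agreement between the spots of a pair differed by array. On array 1 the spots of kay, Ets21C, cbt and CG14186 differed by 0.0295, 0.0612, 0.0140 and 0.0807, while the median difference over named pairs was 0.321. On array 2 they differed by 0.312, 0.436, 1.10 and 0.650, against a median of 0.341. The difference for cbt was wider than in 95.6% of the named pairs of that array. On array 3 the differences were 0.0501, 0.175, 0.361 and 0.0770, against a median of 0.394. For kay and CG14186 the spots agreed closely on arrays 1 and 3, which gave their higher ratios. On array 1 the spots of Ets21C and cbt agreed closely too, those of cbt the most, at a mean ratio of 0.08. Both spots above 0 on all 3 arrays were found for kay and CG14186, and for 4% of the 6106 genes with a single printed pair. Both spots above the median of the 7 by 7 spots around them on all 3 arrays were found for kay only, and for 4.49% of those genes.

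Spots that touch on the slide also resembled each other without sharing a gene. The rank correlation over all spots was 0.462, 0.274 and 0.435 within printed pairs on arrays 1 to 3. Between touching spots of different pairs in a row it was 0.338, 0.222 and 0.343, and between touching spots in a column 0.329, 0.207 and 0.355. The last spot of a row of 24 and the first of the next gave −0.0227, 0.0241 and −0.0312. These are descriptions over spots of one slide, which share its hybridisation and scan. Agreement of a pair is therefore not independent support for its gene, so each member was set against the spots around it.

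Around kay the 6 touching spots had means of 0.37, −0.20 and 0.35 on arrays 1 to 3, and the pair lay above them by 0.71, 0.55 and 0.37. Around CG14186 the 6 touching spots had means of 0.02, −0.07 and 0.36, and the pair lay above them by 0.89, 0.45 and 0.39. Both pairs stood above the mean of their touching spots on all 3 arrays. Around Ets21C, which sits at the edge of its block, the 5 touching spots had means of 0.21, 0.27 and 0.67. Its pair lay above them by 0.26 on array 1 and below by −0.13 and −0.18 on arrays 2 and 3. Around cbt the 6 touching spots had means of 0.16, −0.11 and 0.21, from which the pair differed by −0.08, 0.17 and 0.33.

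Subtraction of the median of the 7 by 7 spots around each spot, a setting chosen after seeing the data, left kay at a mean of 0.64 and CG14186 at 0.62. cbt moved to 0.28, and Ets21C to 0.0556 with a 95% interval of −0.42 to 0.53. After it kay, CG14186 and cbt were above 0 on all 3 arrays, as were 14.3% of the named genes, while Ets21C was at −0.11 on array 2. With the mean of the touching spots subtracted instead, kay stood at 0.54, CG14186 at 0.58, cbt at 0.14 and Ets21C at −0.018. The spots touching Ets21C had means above 0 on all 3 arrays. Its pair exceeded that mean on array 1 only, by 0.26. The part of this slide region in the gene's value was not tested.

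**Figure D3:**
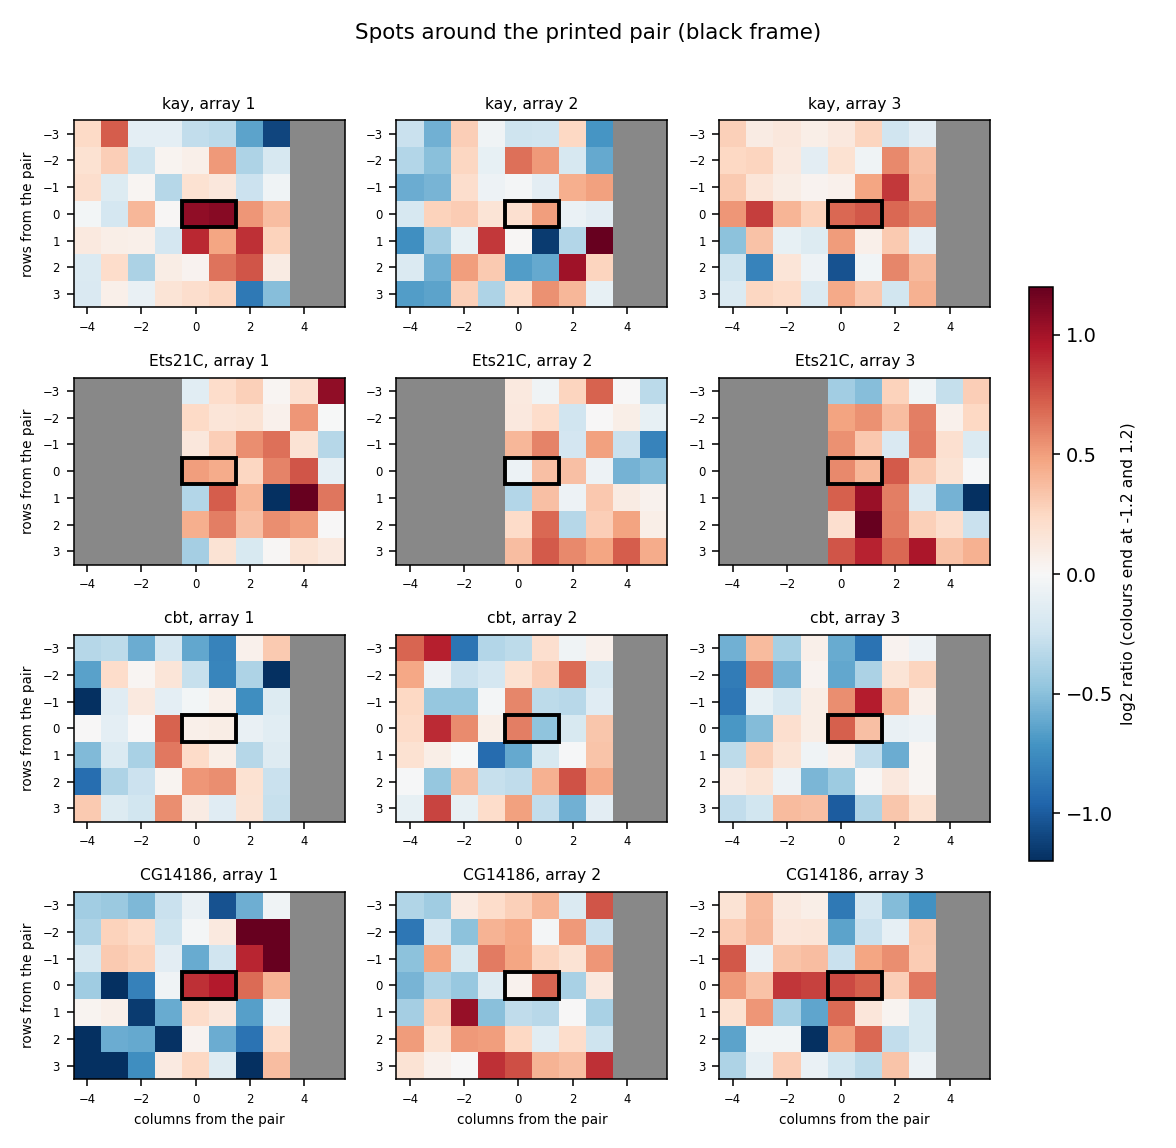
Log2 ratio by colour for the spots around each printed pair (black frame), with rows and columns counted from the first spot of the pair, on each 12k array. Dark grey marks places beyond the block of spots. The pairs of kay and CG14186 lie above the mean of their touching spots on all 3 arrays, though single spots nearby are as high or higher. Ets21C on array 3 touches spots with a mean of 0.67.

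The members' profiles over the 3 arrays were compared by Euclidean distance between log2 ratios, which describes likeness over 3 values only. kay was the nearest of all named genes to CG14186, at 0.17. From kay, only CG15745 was nearer, at 0.12, with 1.08, 0.35 and 0.84 on arrays 1 to 3. The deubiquitinase gene Usp5 and CG42565 came next for kay, at 0.25 and 0.28. Usp5, CG42565 and CG15745 were also the 3 genes outside the set nearest to CG14186, at 0.18 each.

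Ets21C had fand, CG32161 and CG1850 nearest, at 0.028, 0.049 and 0.060. cbt had CG16704, tzn and CG10761 nearest, at 0.044, 0.044 and 0.046. Both genes lie where many named genes do: 384 genes were nearer to Ets21C than cbt was, and 772 were nearer to cbt than Ets21C was. By gene order in the Release 6 RefSeq assembly, cbt and Ets21C are close neighbours on one chromosome, with 4 annotated genes between them. Of these only Spp, which encodes signal peptide peptidase, was measured, at 0.07, 0.48 and −0.37 on arrays 1 to 3. Its mean of 0.06 ± 0.43 (SD, n = 3) had no one sign.

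Other genes of the same pathway and families were counted over 7 lists drawn up by function, with earlier results of these data known. No listed gene passed limma's test over all features. Of the partners named for AP-1 and for the early response, Jra, bsk, aop, pnt, Hr38 and sr were not measured under a single symbol on either design. The early response list held 7 measured genes of 13. Of these, 4 were above 0 on all 3 arrays, namely the members themselves, and 0 were below, beside 12.5% and 16.9% of the named genes. The median of the 7 means, 4 of them the members' own, was 0.23, and that of all named genes −0.0477. For the 3 genes outside the set the median was 0.06. Those 3 were CG8910 at 0.11, CG46385 at 0.06 and the kinase gene meng at −0.25, each with mixed signs.

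Of 29 listed JNK pathway genes 10 were measured, with a median of −0.16 by their means, and of −0.35, 0.02 and −0.17 on arrays 1 to 3. Of these 0 were above and 1 was below 0 on all 3 arrays. Among all named genes 12.5% were above and 16.9% below on all 3. The one was grnd, which encodes a TNF receptor upstream of JNK, at −0.45, −0.69 and −0.69, or −0.61 ± 0.14 (SD, n = 3), with a limma unadjusted p of 0.0283 and an adjusted p of 0.853. Of the named genes 2.58% were lower at an unadjusted p of 0.05. The adaptor gene Traf4 had a mean of −0.50 and the tyrosine kinase gene Shark one of −0.44, with mixed signs over arrays. With local medians of 7 by 7 spots subtracted, Traf4 turned to 0.29.

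Targets of JNK and AP-1 held 5 measured genes of 21, with a median of −0.13. Of these 0 were above and 0 below 0 on all 3 arrays, beside 12.5% and 16.9% of the named genes. puc, the JNK phosphatase that is itself a target of the pathway, stood at 0.05, 0.53 and −1.10. Its mean of −0.17 ± 0.84 (SD, n = 3) became 0.08 with local medians of 7 by 7 spots subtracted, so no direction can be given for it. The profilin gene chic had a mean of 0.25 and the tyrosine hydroxylase gene ple one of 0.20, both with mixed signs.

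Among bZIP factors, the family of kay, 8 of 21 listed genes were measured. Of these 2 were above 0 on all 3 arrays and 0 below. Without kay the counts were 1 and 0 of 7, beside 12.5% and 16.9% of the named genes. The median of the 8 means was 0.34, and of the 7 outside the set 0.32. For all named genes it was −0.05. The first of the 2 was kay itself and the second was REPTOR, a factor that acts when TORC1 signalling is low. It stood at 0.64, 0.29 and 1.94, or 0.96 ± 0.87 (SD, n = 3), with a limma unadjusted p of 0.0279 and an adjusted p of 0.853. Pdp1, a clock factor, had a mean of 0.47 and crc, the fly ATF4, one of −0.17, with mixed signs.

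ETS factors held 3 measured genes of 8. Ets96B stood at 0.11, 0.13 and 0.16, above 0 on all 3 arrays like Ets21C, and Ets97D at −0.15 on average with mixed signs. KLF and Sp factors, the family of cbt, held 4 measured genes of 9, and cbt was the 1 above 0 on all 3 arrays. Among all named genes 12.5% were above 0 on all 3 arrays. CG3065 had a mean of −0.38 and luna one of −0.04, with mixed signs.

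Genes tied to cbt through sugar metabolism or the clock held 12 measured of 19, with a median of 0.05. Of these 1 was above and 2 were below 0 on all 3 arrays, beside 12.5% and 16.9% of the named genes. The core clock gene tim was below on all 3, at −0.59 ± 0.42 (SD, n = 3). So was Pepck2, of gluconeogenesis, at −0.32, −0.43 and −0.26, or −0.33 ± 0.09 (SD, n = 3). Neither passed the limma test, with adjusted p of 0.853 and 0.860.

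**Figure D4:**
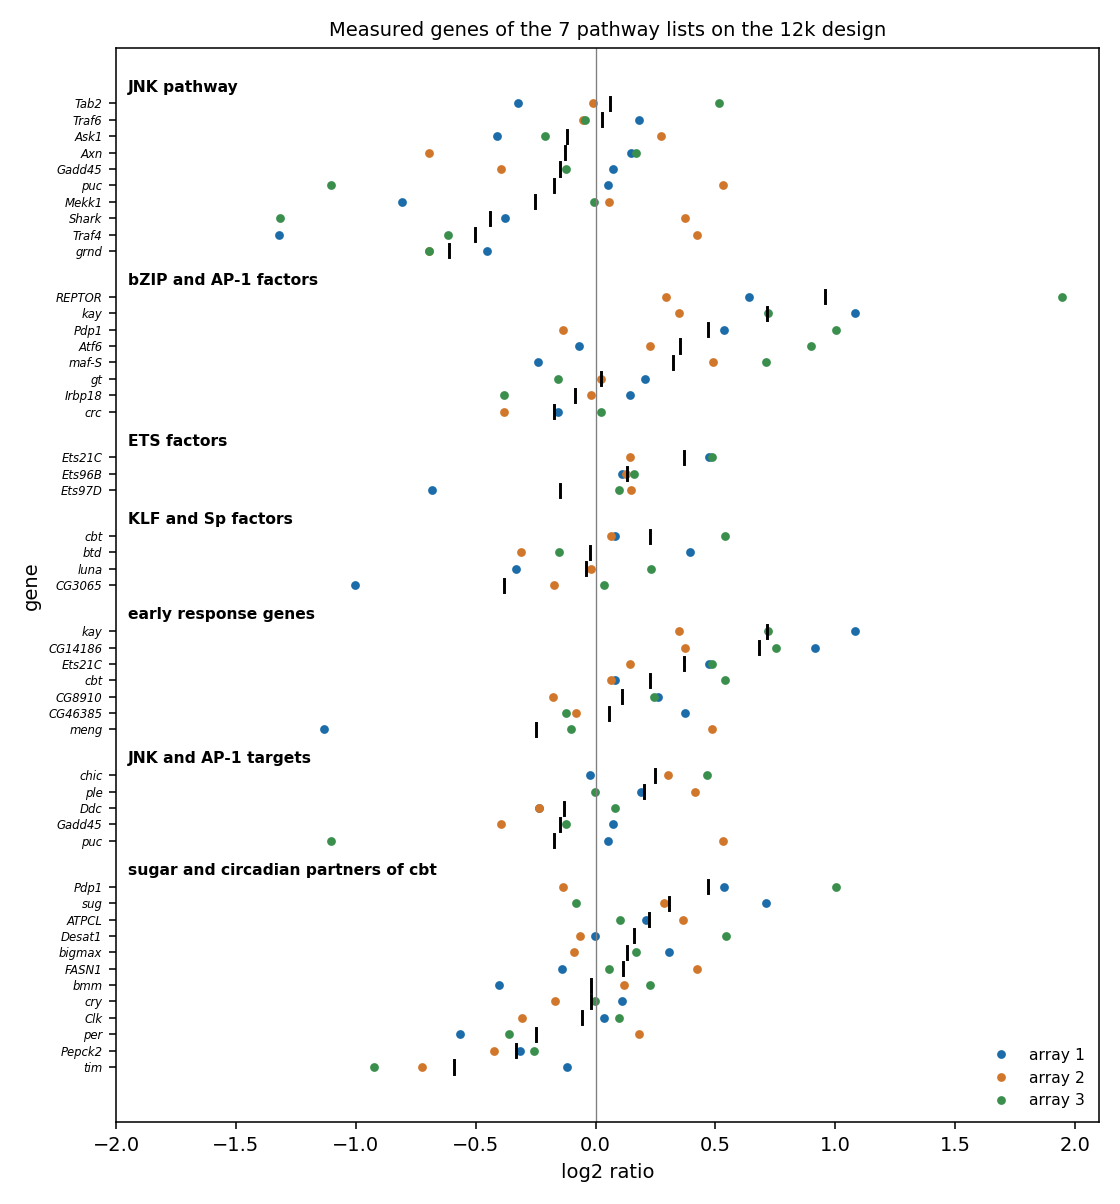
Log2 ratios (horizontal axis) of every measured gene of the 7 pathway lists (vertical axis) on the 3 12k arrays, as coloured points, with a black bar at the mean. Genes in several lists appear in each. The 10 JNK pathway genes have a median of −0.16 by their means, and of −0.35, 0.02 and −0.17 on arrays 1 to 3. Points of kay and CG14186 run from 0.35 to 1.08, and those of Ets21C and cbt from 0.07 to 0.54.

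Markers of cell types were counted because whole flies mix tissues. The marker lists were drawn up with earlier results of these data known. Female markers were below 0 on all 3 arrays for 5 of 9 genes, beside 16.9% of the named genes. The other 4 female markers had mixed signs. Over all 9 the median was −0.45 and the means ran from −2.64 to 0.25. Haemocyte markers, of the blood cells, were below on all 3 for 1 of 6, beside the same 16.9%, with a median of −0.25. Accessory gland and testis markers were below on all 3 for 1 of 6 genes, again beside 16.9%. Their median was 0.05 and their means ran from −0.62 to 0.32. Of 8 neuronal markers only nSyb was measured, at 0.14. The part of these markers in the members' ratios was not tested, and ratios cannot show whether a tissue is absent.

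The pilot array made the same comparison once, with no replicate, and the direction of its ratio is not settled. As deposited, kay read 0.24 and 0.22 on its spots, cbt 0.87 and 0.88, and CG14186 1.53 and 1.11. Since the array's median was 0.40, kay lay 0.17 below it, at the 40.8 percentile of its named genes. cbt lay 0.47 above it, at the 74.8 percentile, and CG14186 0.91 above it, at the 92.2 percentile. If the ratio runs the other way, these signs all turn. kay was therefore on the other side of the pilot's median from cbt and CG14186 in either direction, unlike on the 12k arrays. Of the pathway list genes on the pilot, those farthest from its median were cher, which encodes a filamin, at 1.42, Pdp1 at −1.09 and grnd at 1.03. hep, whose kinase activates JNK and which was measured on the pilot only, lay at −0.42.

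**Figure D5:**
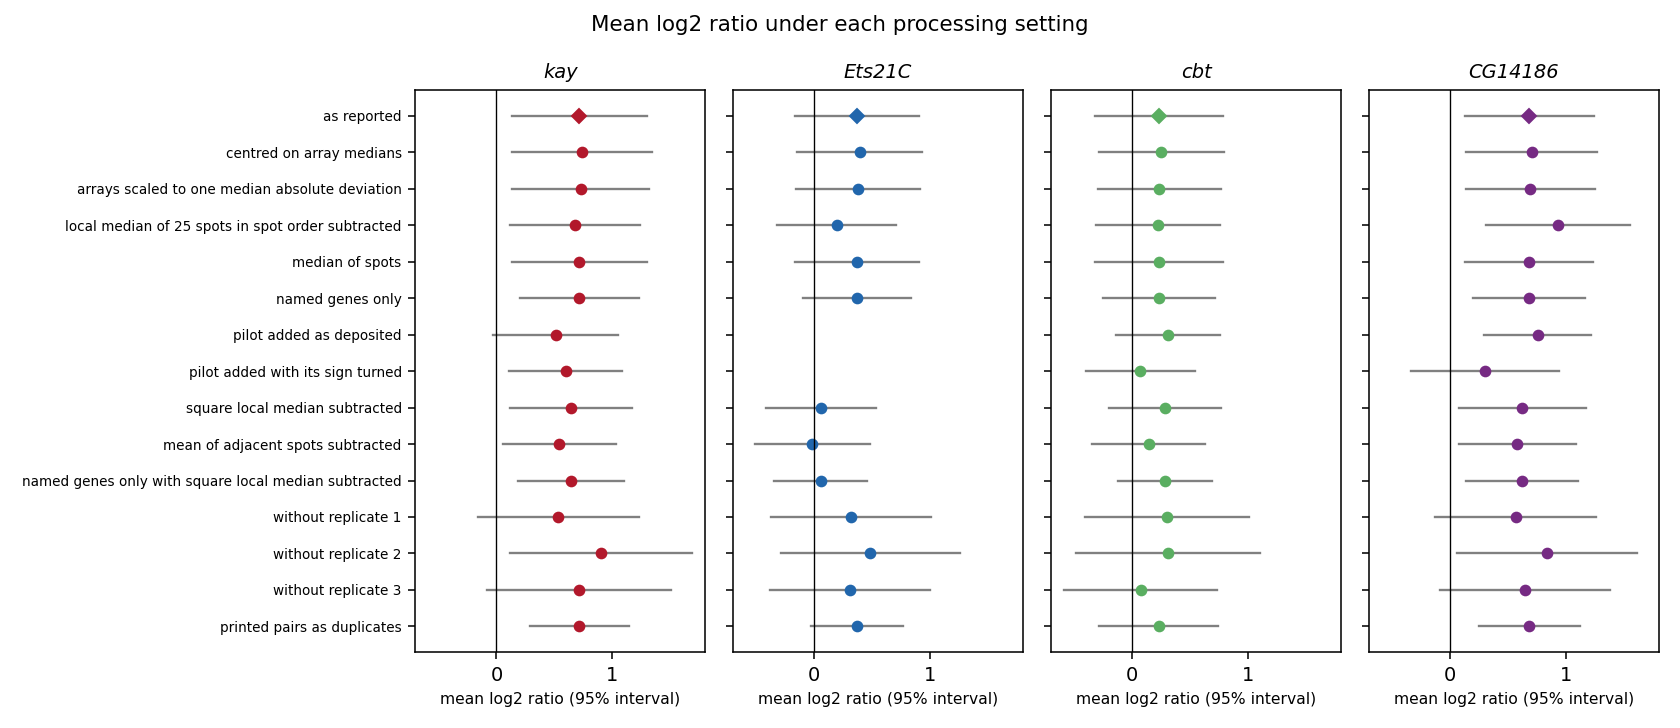
Mean log2 ratio with its 95% interval (horizontal axis) for each gene under the reported setting (diamond) and each alternative (circles, vertical axis). The intervals of kay and CG14186 lie above 0 in the reported setting, while those of Ets21C and cbt span 0 in all settings. The pilot settings have no value for Ets21C.

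Over 14 alternatives kay ranged from 0.51 to 0.90 and CG14186 from 0.30 to 0.93. In the limma fits each had an unadjusted p under 0.05 in 11 of them, and an adjusted p of at least 0.550 and 0.663. The alternatives largely reuse the same 3 arrays, so that count is no measure of support. The interval of kay spanned 0 without array 1, without array 3 and with the pilot added as deposited. That of CG14186 spanned 0 without array 1, without array 3 and with the pilot's sign turned. The number of arrays, 3, limits the precision of these intervals.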

How the data were processed

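The 4 arrays compared cold-shocked and control males directly. The authors deposited 1 log ratio per spot, derived from normalized data per the labels and taken here as log2. How it was normalized, corrected for background or filtered, and its base, were not given in the sources used here. Log2 was chosen because values reached −14.57, beyond 11.09, the natural log of a scanner's full range. No value was missing.

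Spots with 1 symbol were named through the platform annotation, with symbols updated by gene identifier for 14894 of 15116 spots. Spots of a gene were averaged within an array, and each unnamed spot stayed a feature. The mean ratio over the 3 12k arrays was set against 0 in limma (version 3.58.1, R version 4.3.3; lmFit, eBayes; two-sided). P-values were adjusted by Benjamini-Hochberg over 19325 features, with a threshold of 0.05. Residual degrees of freedom were 2 and prior ones 4.99. The test was also run on simulated data with noise drawn independently for each feature. Since touching spots were correlated on these arrays, that run cannot show how the test behaves here. The 7 pathway lists and 4 marker lists got no test. The members and lists were chosen with earlier results of these data known. Genes named are the members, per pathway list the 3 with the largest absolute mean, 8 fixed partners where measured, and per member the 3 nearest profiles, with Spp, crc, cher, CG8910, CG46385 and meng added after seeing values. Rows of 24 spots in blocks of 576 were inferred from correlations by spot lag. Alternatives were centring, scaling, local medians, spot medians, named genes only, left-out arrays, robust eBayes and the pilot added.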

Additional observations from a re-analysis of the deposited data

Results flagged for a closer look

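On the pilot, members lay on the other side of the array median from their place on all 3 12k arrays, each kept relative to its own median. As deposited this held for kay, at −0.17 against a mean of 0.74 on the 12k arrays centred on their medians. With the pilot's sign turned it held instead for cbt, at −0.47, and for CG14186, at −0.91. The difference was not tested, since the pilot is 1 array on another design and its direction is not settled.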

How the results depend on the processing

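Under 12 to 14 alternatives each, kay, cbt and CG14186 kept a mean above 0 and none of the 4 genes passed at an adjusted p of 0.05. Ets21C turned to −0.018 with the mean of touching spots subtracted, and stood at 0.19 with the median of 25 spots in spot order and at 0.0556 with that of 7 by 7 spots subtracted. Without one replicate kay ranged from 0.53 to 0.90, CG14186 from 0.56 to 0.83, Ets21C from 0.31 to 0.48 and cbt from 0.07 to 0.31. With the pilot's sign turned CG14186 was 0.30 and cbt 0.07. The count of features past the adjusted threshold was 0, and 1 with printed pairs fitted as duplicates, which was dhd, a thioredoxin gene of the oocyte, at a limma adjusted p of 0.00956. That feature, 1 of the 9 female markers counted above, lies outside the naming rule and was chosen after its value was seen. There kay and CG14186 had adjusted p of 0.622 and 0.663. The 924 features under an unadjusted p of 0.05 became 387 for named genes only, 462 for those with local medians subtracted, 87 and 145 with the pilot added as deposited and turned, and 597 to 1208 without one replicate. Fewer features were tested in the first 4, namely 6793 with named genes only and 1823 with the pilot added. The 4 early response genes above 0 on all arrays became 2 with touching spots subtracted, 2 and 1 with the pilot added as deposited and turned, where 4 genes on both designs could count, and 4 to 5 without one replicate. Touching spots, 7 by 7 medians and printed pairs as duplicates were chosen after seeing the data. No separate paired analysis was made, because the pairing of cold-shocked with control flies is inside every ratio that limma set against 0. Without intensities, signal over background could not be judged.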
